A study of Homo sapiens with 6 samples.

Results

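The collagen genes were every gene row whose symbol reads COL, a number, A and a number, with antisense and pseudogene symbols left out. The rule found 44 members among 27961 genes. The RNA came from the human neuroblastoma line SH-SY5Y, whose cells resemble sympathetic neuroblasts. All cells were spinfected with lentivirus in 8 µg/mL polybrene and selected with 2 µg/mL puromycin, begun 48 h after infection and kept up for 3 days. The 6 libraries formed 3 groups of 2: a TARDBP short hairpin RNA (TRCN0000016038), control hairpin 1 (SHC007) and control hairpin 2 (SHC016). TARDBP encodes the RNA-binding protein TDP-43. The knockdown rests on 1 TARDBP hairpin, and no uninfected cells are among the libraries.

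Collagens are secreted or membrane proteins in which 3 chains wind into a triple helix. The fibrillar types I, II, III, V and XI build the banded fibrils of connective tissue, type IV forms the sheet-like network of basement membranes, and type VI forms beaded filaments around cells. The FACIT collagens (fibril-associated collagens with interrupted triple helices) sit on the surface of fibrils, and other types anchor epithelia, span the plasma membrane or carry sugar chains next to basement membranes. Fibroblasts are the main makers of fibrillar collagen, and neuroblastoma lines are known to hold adherent, mesenchymal-like cells beside neuroblasts.

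Library totals ran from 18605745 to 21698339 counts, and levels are given in CPM, counts scaled to a common library size with TMM factors. TARDBP itself measured 18.9 and 24.0 CPM with its hairpin, against 80.8 and 72.3 CPM with control hairpin 1 and 92.6 and 81.4 CPM with control hairpin 2, a log2 fold change of -1.93 (SE 0.13) against the mean of both controls. The neuroblast marker list summed to 1236 to 1407 CPM with the TARDBP hairpin, 3007 to 3247 CPM with control hairpin 1 and 2184 to 2326 CPM with control hairpin 2. A call is an adjusted p below 0.05 from edgeR's quasi-likelihood test with Benjamini-Hochberg adjustment over all 17163 genes and repeat families tested, and "rose" and "fell" are written only of calls. Whether the replicates of a hairpin were separate cultures is not stated in the labels. The p-values weigh group differences only against the spread of these libraries within groups, and that spread may be technical.

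Summed over all 44 members, collagen RNA measured 615 and 616 CPM with the TARDBP hairpin, against 2393 and 2505 CPM with control hairpin 1 and 3932 and 3839 CPM with control hairpin 2. The groups did not overlap, and the control hairpins also differed from each other. Without COL3A1 the sums were 563 and 552 CPM with the TARDBP hairpin, 1073 and 1199 CPM with control hairpin 1 and 2351 and 2188 CPM with control hairpin 2. In bulk RNA, fewer cells of a type and less RNA per cell cannot be told apart.

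Of the 44 members, 26 had enough counts to be tested and 18 did not. Against the mean of both control hairpins, 13 of the 26 fell and 6 rose with the TARDBP hairpin, while 24.3% of all genes and repeat families tested fell, 23.9% rose and 48.2% was called in all. The median log2 fold change was -1.04 over the 26 tested members and 0.04 over everything tested. These 26 passed a filter on low counts, so the counts do not speak for the other 18. Both control hairpins were also treated as 1 group of 4 libraries, which puts the difference between them into the spread. In that fit, 8 of the 13 falls and 0 of the 6 rises were called. Of all 17163 genes and repeat families tested, 2572 were called in that fit, against 8269 with the controls kept apart. The falls not called there were those of COL1A1, COL4A1, COL9A1, COL13A1 and COL26A1. Without knockdown replicate 2, 3 of the 6 rises were called.

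**Figure D1:**
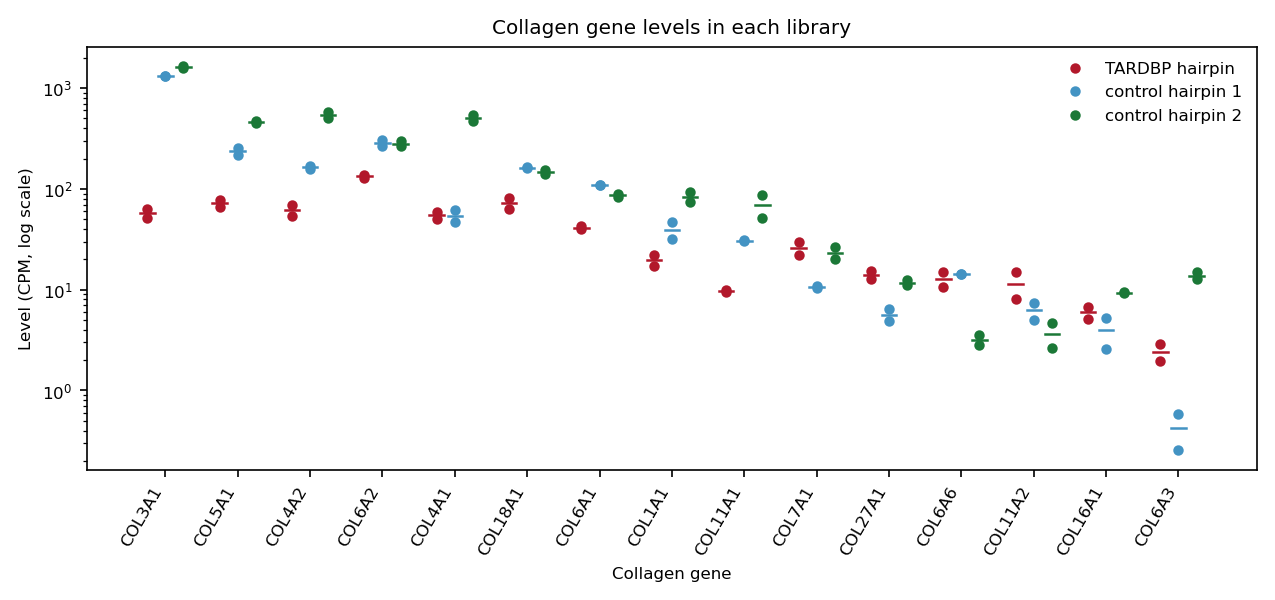
Level of the 15 tested collagen genes with the highest mean, in CPM on a log axis, for the TARDBP hairpin (red), control hairpin 1 (blue) and control hairpin 2 (green). Each point is 1 library and each bar the mean of 2. COL3A1 sits at 52.0 and 63.7 CPM with the TARDBP hairpin and at 1306 to 1651 CPM in the 4 control libraries, while COL4A1 with the TARDBP hairpin overlaps control hairpin 1 and lies below control hairpin 2.

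Each control hairpin was also used alone, and these comparisons share the knockdown libraries. Against control hairpin 1, 10 members fell and 6 rose, where 21.8% of everything tested fell, 21.1% rose and 42.9% was called, with a median of -0.22 over the members and 0.03 over all. Against control hairpin 2, 14 fell and 2 rose, where 26.2% of everything tested fell, 24.0% rose and 50.2% was called, with a median of -1.07 over the members and 0.02 over all. The 10 members that fell against each control hairpin were COL1A1, COL1A2, COL3A1, COL4A2, COL5A1, COL6A1, COL6A2, COL9A1, COL11A1 and COL18A1, and 14.0% of everything tested did so. No member rose against each, against 10.6% of everything tested. COL6A3 rose against control hairpin 1 and fell against control hairpin 2, which 2.06% of everything tested did.

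**Figure D2:**
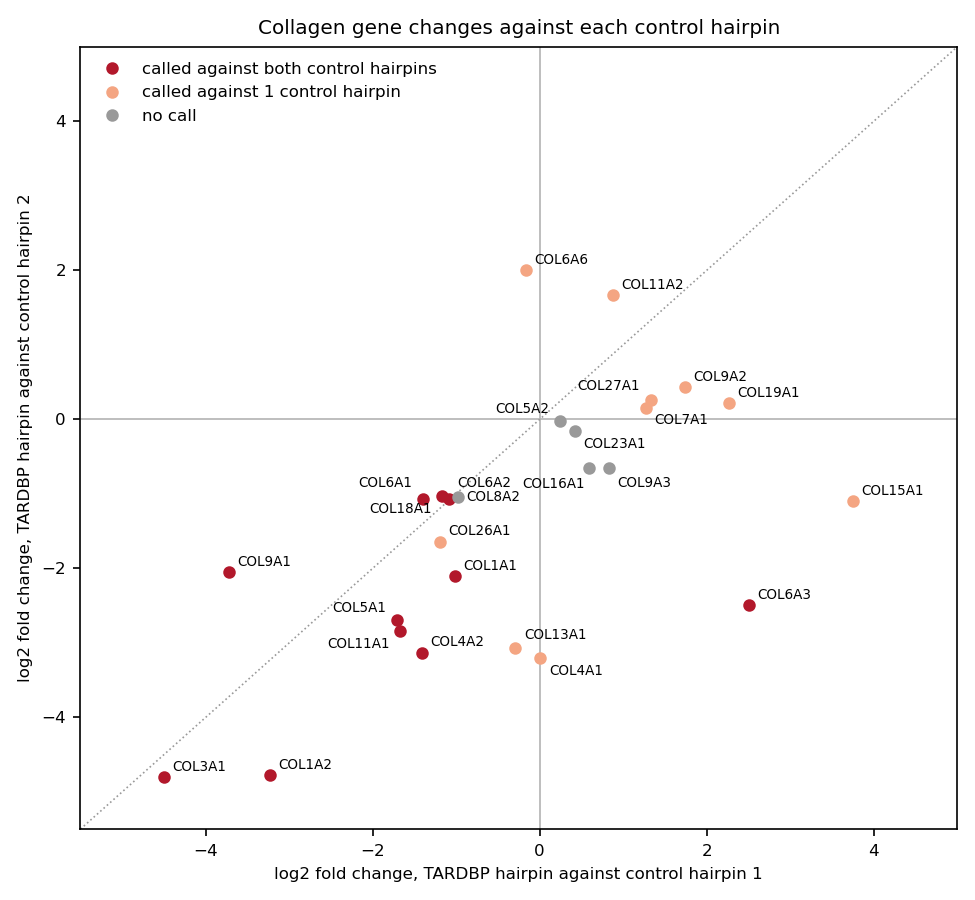
Log2 fold change of the 26 tested collagen genes with the TARDBP hairpin, against control hairpin 1 on the horizontal axis and control hairpin 2 on the vertical axis. Both axes share the knockdown libraries, and the dotted line marks equal change. The 10 members that fell against each control lie in the lower left part, and COL6A3 lies in the lower right at 2.50 and -2.50.

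Of the 8 tested fibrillar members, 5 fell against the mean of both controls and 2 rose, where 24.3% of everything tested fell and 23.9% rose. The rises were thus near the share over everything tested. COL3A1, the single chain of type III collagen, had 52.0 and 63.7 CPM with the TARDBP hairpin, against 1320 and 1306 CPM with control hairpin 1 and 1582 and 1651 CPM with control hairpin 2. All 4 control libraries were far above both knockdown libraries, a 25.2-fold fall (log2 fold change -4.65, SE 0.12, adjusted p = 6.58e-07). COL5A1, a chain of the type V collagen that starts type I fibrils, had 66.5 and 77.0 CPM with the TARDBP hairpin, against 215 and 255 CPM with control hairpin 1 and 475 and 455 CPM with control hairpin 2. COL5A1 fell 4.61-fold against the mean of both controls (log2 fold change -2.20, SE 0.11, adjusted p = 6.95e-06), and the 3 groups did not overlap.

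COL11A1, a chain of the related type XI collagen of cartilage fibrils, had 9.82 and 9.50 CPM with the TARDBP hairpin, 31.0 and 30.4 CPM with control hairpin 1 and 87.5 and 51.0 CPM with control hairpin 2. Its fall was 4.77-fold (log2 fold change -2.25, SE 0.22, adjusted p = 0.000105), close in size to that of COL5A1, although the 2 libraries of control hairpin 2 stood well apart. RefSeq windows of 300 bases around the starts of these 2 genes (GRCh38.p14, 250 bases before and 50 after each start) are printed because both chains fell against each control; COL5A1 lies at chr9:134641553-134641852 on the plus strand and COL11A1 at chr1:103108473-103108772 on the minus strand. Capitals mark GGGCGG (GC box) and CCAAT on either strand, and neither window held TATAAA.
COL5A1: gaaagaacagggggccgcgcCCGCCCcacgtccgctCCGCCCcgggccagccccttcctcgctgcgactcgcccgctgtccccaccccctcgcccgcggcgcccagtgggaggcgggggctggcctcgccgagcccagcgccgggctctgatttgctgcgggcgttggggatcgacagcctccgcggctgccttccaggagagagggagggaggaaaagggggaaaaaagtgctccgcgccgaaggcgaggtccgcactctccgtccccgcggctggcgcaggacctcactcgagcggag
COL11A1: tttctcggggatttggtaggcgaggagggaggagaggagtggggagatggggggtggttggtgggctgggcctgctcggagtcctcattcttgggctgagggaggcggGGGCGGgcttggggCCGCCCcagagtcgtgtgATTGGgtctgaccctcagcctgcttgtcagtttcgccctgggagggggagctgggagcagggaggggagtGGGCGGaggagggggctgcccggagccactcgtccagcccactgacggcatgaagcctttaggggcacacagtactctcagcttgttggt
COL5A1 held 2 GC boxes and 0 CCAAT, and COL11A1 held 3 GC boxes and 1 CCAAT. Among 44 windows of 32 members, 54.5% held a GC box, 31.8% CCAAT and 18.2% TATAAA, against 45.0%, 34.6% and 11.5% of all 35116 windows.

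Type I collagen is made of a pair of COL1A1 chains and 1 COL1A2 chain. COL1A1 had 17.2 and 22.0 CPM with the TARDBP hairpin, against 32.0 and 47.0 CPM with control hairpin 1 and 74.4 and 93.1 CPM with control hairpin 2, and it fell 2.94-fold (log2 fold change -1.56, SE 0.19, adjusted p = 0.000289). COL1A2 had only 2 and 3 counts with the TARDBP hairpin, against 14 and 37 counts with control hairpin 1 and 76 and 73 counts with control hairpin 2. COL1A2 was scarce beside COL1A1 in every group, and its fall (log2 fold change -4.00, SE 0.56, adjusted p = 0.00063) rests on 5 counts in the knockdown libraries. The ratio of its pooled counts over pooled scaled library sizes, knockdown over control, was 0.102 for control hairpin 1 (95% exact counting interval 0.0317 to 0.253) and 0.0350 for control hairpin 2 (0.0112 to 0.0835).

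The fibrillar members that rose were COL27A1 and COL11A2. COL27A1, a minor fibrillar chain of cartilage, had 12.9 and 15.3 CPM with the TARDBP hairpin, against 4.84 and 6.36 CPM with control hairpin 1 and 12.5 and 11.1 CPM with control hairpin 2. It was called against control hairpin 1 (log2 fold change 1.33, SE 0.18) but not against control hairpin 2 (0.26, SE 0.17). COL11A2, a second type XI chain, had 8.06 and 14.9 CPM with the TARDBP hairpin, 7.44 and 5.04 CPM with control hairpin 1 and 4.63 and 2.64 CPM with control hairpin 2. Both knockdown libraries lay above all 4 controls, yet the call against the mean was lost without knockdown replicate 2, and COL11A2 was called against control hairpin 2 (1.67, SE 0.36) but not control hairpin 1 (0.88, SE 0.34). COL5A2, the partner chain of COL5A1 in type V collagen, measured 4.45 and 5.76 CPM with the TARDBP hairpin, 4.53 and 4.11 CPM with control hairpin 1 and 5.47 and 4.90 CPM with control hairpin 2, with a log2 fold change of 0.11 (SE 0.17) and no call.

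**Figure D3:**
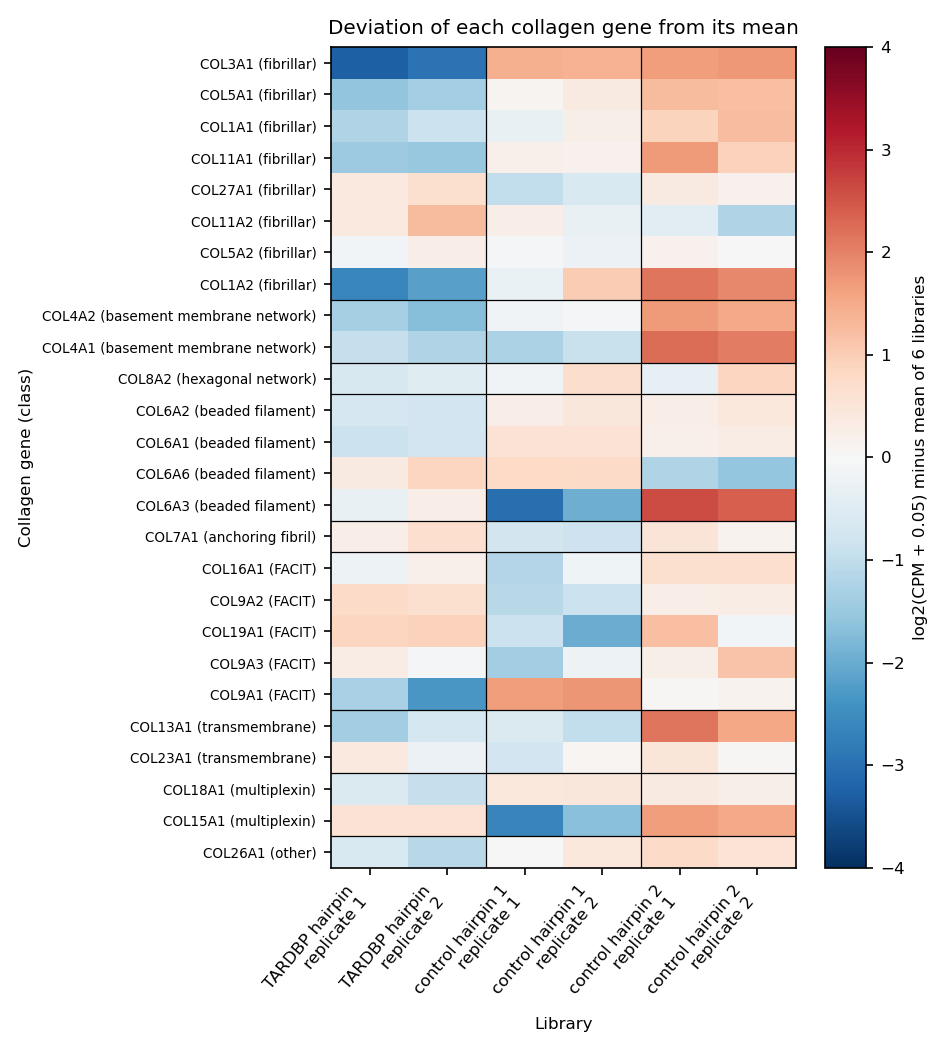
Deviation of each of the 26 tested collagen genes from its own mean over 6 libraries, as log2(CPM + 0.05), with genes in rows grouped by class and libraries in columns, the TARDBP hairpin on the left. Blue is below the mean and red above. COL3A1, COL1A2 and COL9A1 are among the darkest blue with the TARDBP hairpin, and COL6A3 and COL15A1 among the darkest blue with control hairpin 1.

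COL4A1 and COL4A2 encode the chains of the common form of type IV collagen and start back to back on chromosome 13. The 126 bases between their RefSeq starts (GRCh38.p14, chr13:110307158-110307283, plus strand, COL4A1 transcribed to the left and COL4A2 to the right) are printed because the pair shares them. They are 80.2% G or C and hold 1 CCAAT and 1 GC box, both in capitals, and no TATAAA.
COL4A1_COL4A2_between_starts: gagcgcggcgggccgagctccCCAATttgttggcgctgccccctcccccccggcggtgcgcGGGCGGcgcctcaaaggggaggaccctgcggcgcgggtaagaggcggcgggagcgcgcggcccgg
Across the 3 groups the pair kept different orders. COL4A2 had 69.6 and 53.8 CPM with the TARDBP hairpin, against 158 and 170 CPM with control hairpin 1 and 576 and 506 CPM with control hairpin 2. COL4A1 had 59.6 and 49.8 CPM with the TARDBP hairpin, against 47.1 and 61.5 CPM with control hairpin 1 and 536 and 471 CPM with control hairpin 2. COL4A2 was lowest in both knockdown libraries, whereas COL4A1 overlapped between the TARDBP hairpin and control hairpin 1.

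Against control hairpin 2, both type IV genes fell by a like amount, COL4A2 8.77-fold (log2 fold change -3.13, SE 0.14, adjusted p = 4.68e-06) and COL4A1 9.20-fold (-3.20, SE 0.16, adjusted p = 5.62e-06). Against control hairpin 1, COL4A2 fell 2.65-fold (-1.41, SE 0.13, adjusted p = 0.000105) while COL4A1 measured 0.01 (SE 0.15) with no call. Per kilobase of transcript, the ratio of COL4A1 to COL4A2 was 0.839 and 0.910 in the TARDBP hairpin libraries, 0.294 and 0.355 in those of control hairpin 1 and 0.913 and 0.913 in those of control hairpin 2. Control hairpin 1 stood apart from the other two in this ratio, which library scaling cannot change. The ratio is a description with 2 libraries a group and no test. Its size depends on the transcript lengths used, which scale all libraries alike. The chains COL4A3, COL4A4, COL4A5 and COL4A6, found in specialised basement membranes such as those of kidney, had 0 to 7 counts in each library and were not tested.

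**Figure D4:**
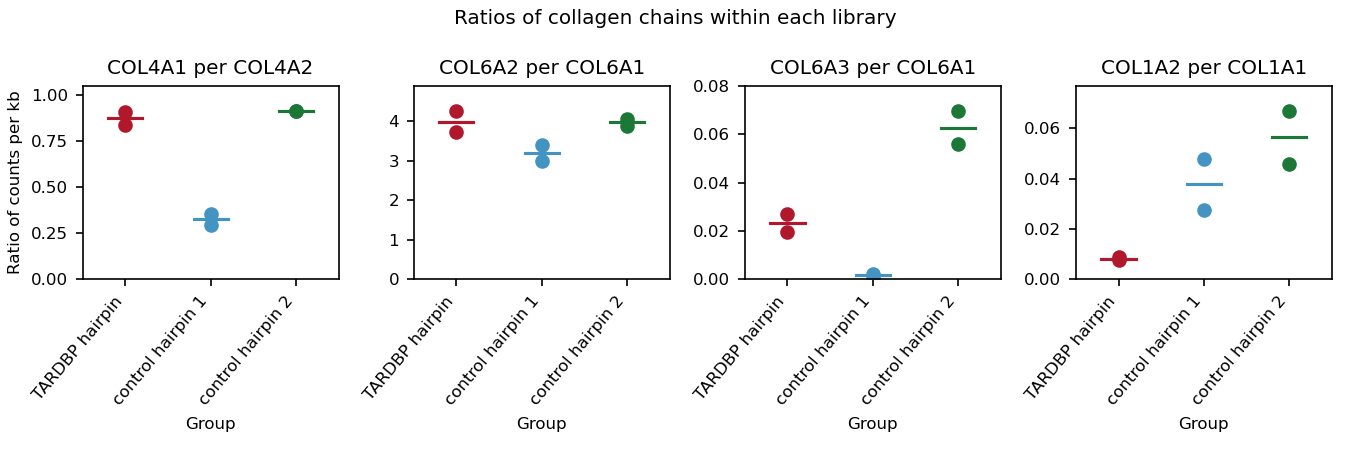
Ratio of the counts per kilobase of 2 collagen chains within each library, for 4 chain pairs, each panel with its own axis from 0. Points are libraries and bars the mean of 2. COL4A1 per COL4A2 lies at 0.294 and 0.355 with control hairpin 1 and between 0.839 and 0.913 in the other 4 libraries, while COL6A3 per COL6A1 and COL1A2 per COL1A1 are far below 1 in all 6.

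Type VI collagen is assembled from COL6A1, COL6A2 and a larger chain, usually COL6A3, in whose place COL6A5 or COL6A6 can stand. COL6A2 had 139 and 129 CPM with the TARDBP hairpin, 266 and 303 CPM with control hairpin 1 and 267 and 297 CPM with control hairpin 2. COL6A1 had 40.0 and 42.5 CPM with the TARDBP hairpin, 109 and 109 CPM with control hairpin 1 and 84.0 and 89.5 CPM with control hairpin 2. Both fell to below every control library, COL6A2 by 2.12-fold (log2 fold change -1.08, SE 0.09, adjusted p = 6.3e-05) and COL6A1 by 2.36-fold (-1.24, SE 0.08, adjusted p = 1.67e-05), and neither differed by more than 1.26-fold between the control hairpins. The RefSeq window of COL6A2 (GRCh38.p14, chr21:46097862-46098161, plus strand, 250 bases before and 50 after its start) is printed because COL6A2 was, per kilobase, the highest collagen gene in the knockdown libraries. It held 4 GC boxes and 1 TATAAA, in capitals, and no CCAAT.
COL6A2: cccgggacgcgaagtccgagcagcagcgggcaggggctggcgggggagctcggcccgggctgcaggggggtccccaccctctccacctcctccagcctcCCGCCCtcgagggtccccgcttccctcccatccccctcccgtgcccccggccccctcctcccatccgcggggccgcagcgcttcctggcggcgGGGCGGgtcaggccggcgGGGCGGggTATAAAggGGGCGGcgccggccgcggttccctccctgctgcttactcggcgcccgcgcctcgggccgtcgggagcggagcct

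The larger chains followed other orders. COL6A3 had 1.96 and 2.91 CPM with the TARDBP hairpin, 0.255 and 0.587 CPM with control hairpin 1 and 14.8 and 12.7 CPM with control hairpin 2. The 3 groups did not overlap and the knockdown lay between the controls, 5.67-fold above control hairpin 1 (log2 fold change 2.50, SE 0.39, adjusted p = 0.00123) and 5.64-fold below control hairpin 2 (-2.50, SE 0.25, adjusted p = 0.000114). COL6A6 had 10.6 and 15.1 CPM with the TARDBP hairpin, 14.4 and 14.3 CPM with control hairpin 1 and 3.58 and 2.82 CPM with control hairpin 2, which put control hairpin 2 below the other two. COL6A6 rose 4.02-fold against control hairpin 2 (2.01, SE 0.21, adjusted p = 0.000168), with no call against control hairpin 1 (-0.16, SE 0.19). Per kilobase, COL6A6 per COL6A1 was 0.118 and 0.157 in the TARDBP hairpin libraries, 0.0586 and 0.0580 in those of control hairpin 1 and 0.0188 and 0.0140 in those of control hairpin 2, and COL6A3 per COL6A1 was at most 0.0697 in all 6 libraries. COL6A5 had 0 to 9 counts in each library and was not tested.

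COL18A1, whose protein carries heparan sulfate in basement membranes and yields endostatin, had 80.4 and 63.6 CPM with the TARDBP hairpin, against 160 and 164 CPM with control hairpin 1 and 153 and 141 CPM with control hairpin 2. It fell 2.14-fold (log2 fold change -1.10, SE 0.11, adjusted p = 0.000111), below every control library. COL15A1, the other multiplexin, had 8 and 8 counts with the TARDBP hairpin, 0 and 1 counts with control hairpin 1 and 18 and 18 counts with control hairpin 2. Its only call with the TARDBP hairpin was a rise against control hairpin 1, where 16 counts against 1 give a ratio of 16.6 (95% exact counting interval 2.58 to 696). That call was lost without control hairpin 1 replicate 1.

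Of the FACIT collagens, COL9A2 and COL19A1 rose and COL9A1 fell among 5 tested members, where 48.2% of everything tested was called. Type IX collagen, which coats cartilage fibrils, joins COL9A1, COL9A2 and COL9A3. COL9A1 had 5 and 2 counts with the TARDBP hairpin, 47 and 52 counts with control hairpin 1 and 14 and 17 counts with control hairpin 2, a fall against the mean of both controls (log2 fold change -2.89, SE 0.41, adjusted p = 0.000714) that rests on 7 knockdown counts; against control hairpin 2 the call was lost without knockdown replicate 2. COL9A2 went the other way, with 4.70 and 4.31 CPM with the TARDBP hairpin, 1.22 and 1.47 CPM with control hairpin 1 and 3.26 and 3.39 CPM with control hairpin 2 (1.09, SE 0.18, adjusted p = 0.00134). Both knockdown libraries exceeded all 4 controls for COL9A2, but against control hairpin 2 alone there was no call (0.44, SE 0.20).

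COL9A3 had 1.91 and 1.45 CPM with the TARDBP hairpin, 0.560 and 1.32 CPM with control hairpin 1 and 1.84 and 3.44 CPM with control hairpin 2, and COL16A1, a FACIT of many tissues, had 5.17 and 6.80 CPM with the TARDBP hairpin, 2.60 and 5.28 CPM with control hairpin 1 and 9.31 and 9.42 CPM with control hairpin 2. Neither passed the test with the TARDBP hairpin. COL19A1, a rare FACIT of basement membrane zones, had 4.14 and 4.36 CPM with the TARDBP hairpin, 1.22 and 0.538 CPM with control hairpin 1 and 5.26 and 2.12 CPM with control hairpin 2. It overlapped control hairpin 2, and its call (1.24, SE 0.38, adjusted p = 0.0249) was lost without either knockdown replicate or without control hairpin 1 replicate 2.

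COL7A1, the anchoring fibril collagen that ties the epidermal basement membrane to the dermis, had 22.2 and 29.7 CPM with the TARDBP hairpin, 11.0 and 10.4 CPM with control hairpin 1 and 26.3 and 20.3 CPM with control hairpin 2. The knockdown lay above control hairpin 1 (log2 fold change 1.28, SE 0.18, adjusted p = 0.000781) and overlapped control hairpin 2 (0.16, SE 0.17), and the rise against the mean of both was lost without knockdown replicate 2. COL13A1, a transmembrane collagen of cell junctions that include the neuromuscular synapse, had 4 and 7 counts with the TARDBP hairpin, 8 and 6 counts with control hairpin 1 and 56 and 41 counts with control hairpin 2, and fell against control hairpin 2 (-3.06, SE 0.43, adjusted p = 0.000635), while its fall against the mean of both was lost without knockdown replicate 1 or control hairpin 1 replicate 1. COL26A1, a collagen of testis and ovary in the mouse, had 6 and 4 counts with the TARDBP hairpin, 10 and 14 counts with control hairpin 1 and 17 and 16 counts with control hairpin 2. Its call against the mean of both controls (-1.42, SE 0.41, adjusted p = 0.0217) was lost with DESeq2 and in 4 of the 6 fits without 1 library, those without knockdown replicate 1 or 2, control hairpin 1 replicate 2 or control hairpin 2 replicate 1. The transmembrane COL23A1 and the network-forming COL8A2 held 0.408 to 1.27 CPM in each library and were not called.

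Both knockdown libraries lay below all 4 control libraries in 11 of the 13 members that fell, the exceptions being COL4A1 and COL13A1. Over everything tested, this held for 3458 of the 4167 genes and repeat families that fell. The knockdown libraries lay above all 4 in 3 of the 6 members that rose (COL9A2, COL11A2, COL27A1), against 3287 of 4102 over everything tested. Set against all 26 tested members, 11 fell and 3 rose in this way, where 20.1% and 19.2% of everything tested did. The 18 untested members had at most 15 counts in a library and at most 46 in all. They included COL2A1, the main fibrillar chain of cartilage (1 and 1 counts with the TARDBP hairpin, 0 and 3 counts with control hairpin 1 and 7 and 9 counts with control hairpin 2), COL10A1 of growth cartilage, COL12A1 and COL14A1 of tendon and dermis and COL17A1 of hemidesmosomes. COL25A1 had 0 counts in all 6 libraries, and 3 counts over their total would be 0.0252 CPM, a limit that covers counting error only.

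The makeup of the collagen RNA differed between groups as well as its amount. Per kilobase of the longest coding transcript (GENCODE), COL3A1 made up 9.16% ± 1.42 of the collagen level with the TARDBP hairpin, 52.8% ± 2.12 with control hairpin 1 and 43.8% ± 1.59 with control hairpin 2 (SD, n = 2 each). COL6A2 made up 33.9% ± 1.36 with the TARDBP hairpin, 18.3% ± 1.08 with control hairpin 1 and 12.2% ± 1.01 with control hairpin 2. COL6A2 thus led the knockdown libraries, at 38.7 CPM per kilobase, ahead of COL18A1 (10.9), COL3A1 (10.4), COL6A1 (9.72) and COL4A2 (9.50), whose replicate values overlap. The place of COL4A2 depends on the length used. COL3A1 led both control groups, at 237 CPM per kilobase with control hairpin 1 and 292 CPM per kilobase with control hairpin 2.

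The control hairpins differed from each other in many collagen genes. With control hairpin 2 set against control hairpin 1, 15 members were higher and 3 lower, where 22.8% of everything tested was higher, 20.4% lower and 43.2% called, with a median log2 fold change of 1.08 over the members and -0.01 over all. COL6A3 was 32.0-fold higher with control hairpin 2 (log2 fold change 5.00, SE 0.32, adjusted p = 3.41e-05), COL4A1 9.26-fold (3.21, SE 0.16, adjusted p = 1.64e-05) and COL4A2 3.31-fold (1.72, SE 0.13, adjusted p = 6.79e-05). COL6A6 (-2.17, SE 0.21), COL9A1 (-1.67, SE 0.31) and COL6A1 (-0.33, SE 0.09) were lower, and the COL6A1 call was lost without any 1 of the 4 control libraries. COL16A1 (1.24, SE 0.29) and COL9A3 (1.48, SE 0.44) were called in this comparison only, COL9A3 not without control hairpin 1 replicate 1 or control hairpin 2 replicate 2. COL15A1 had 36 counts in all with control hairpin 2 and 1 with control hairpin 1, a ratio of 35.8 (95% exact counting interval 6.03 to 1454). Of the members that fell against each control, COL6A2 (-0.02, SE 0.10), COL18A1 (-0.14, SE 0.12) and COL3A1 (0.30, SE 0.11) were not called between the controls, although COL3A1 was called with median-of-ratios scaling or without either knockdown library.

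Collagen chains depend on enzymes and chaperones of the endoplasmic reticulum, on large transport carriers, and on proteases and crosslinking enzymes outside the cell. The counts of the lists that follow are to be read against 24.3% of everything tested falling, 23.9% rising and 48.2% being called. Of 18 tested genes for folding and hydroxylation, 11 fell against the mean of both controls and 3 rose, with a median of -0.55 against 0.04 over everything tested. SERPINH1, the collagen chaperone HSP47, had 46.3 and 46.1 CPM with the TARDBP hairpin, 133 and 150 CPM with control hairpin 1 and 196 and 232 CPM with control hairpin 2 (log2 fold change -1.91, adjusted p = 8.95e-06). The sugar transferase COLGALT1 (-1.04), the hydroxylation complex member P3H4 (-1.13) and the lysyl hydroxylase PLOD1 (-0.84) also fell against each control. CRTAP (0.35, lost without knockdown replicate 1), which acts in prolyl hydroxylation, and the ion channel TMEM38B (0.79) rose, as did the prolyl 4-hydroxylase chain P4HA1 (0.29). P4HA1 was called against control hairpin 1 (0.86) and not against control hairpin 2 (-0.28), and its call against the mean was lost in 5 of the 6 fits that left out 1 library.

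Of 13 tested genes for propeptide removal and crosslinking, 9 fell and 1 rose (median -1.30). LOXL2, a lysyl oxidase that crosslinks type IV collagen, had 10.2 and 11.2 CPM with the TARDBP hairpin, 31.9 and 36.0 CPM with control hairpin 1 and 64.9 and 58.7 CPM with control hairpin 2 (-2.10, adjusted p = 8.67e-06). PXDN, the peroxidasin that forms sulfilimine crosslinks in type IV collagen, fell by 1.36 and the C-propeptide protease BMP1 by 1.03 on the log2 scale. The 1 gene that rose was ADAMTS2, the protease that removes N-propeptides of fibrillar procollagens. ADAMTS3, TLL2 and PCOLCE2 were not called against the mean of both controls. ADAMTS2 had 15.2 and 18.2 CPM with the TARDBP hairpin, 0.662 and 1.32 CPM with control hairpin 1 and 3.58 and 4.90 CPM with control hairpin 2, and rose against each (3.02 against their mean, adjusted p = 2.21e-05).

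**Figure D5:**
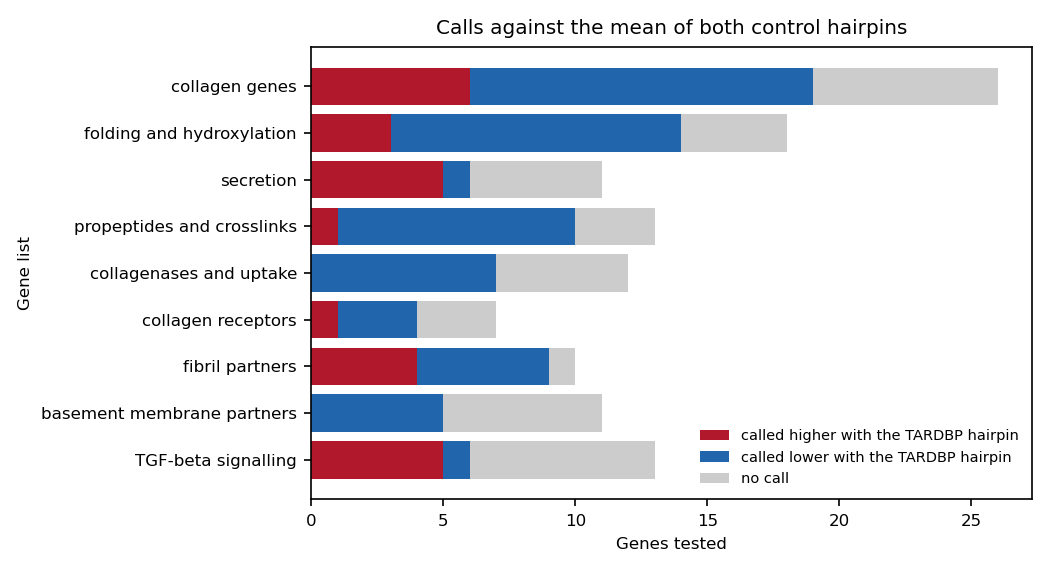
Number of tested genes called higher or lower with the TARDBP hairpin against the mean of both control hairpins, for the collagen genes and 8 lists of collagen pathway genes. Bars count genes and start at 0. Collagen genes fell in 13 of 26, folding genes in 11 of 18 and propeptide and crosslink genes in 9 of 13, while secretion genes rose in 5 of 11. Over everything tested, 24.3% fell, 23.9% rose and 48.2% was called.

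Of 11 tested secretion genes, 5 rose and 1 fell (median 0.21). The coat protein gene SEC24D fell (-1.03, adjusted p = 0.000104). SAR1B (0.65), SEC23A (0.36), KLHL12 (0.42), MIA2 (0.36) and CREB3L2 (0.28), all of vesicle export or its control, rose. The call of MIA2 was lost with median-of-ratios scaling, DESeq2, no count filter or the replicate block, and that of CREB3L2 with DESeq2. The 5 rises became 2 without knockdown replicate 2, control hairpin 1 replicate 2 or control hairpin 2 replicate 2 and 3 without control hairpin 2 replicate 1, and SAR1B, SEC23A, KLHL12 and MIA2 were called against only 1 of the controls.

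Of 12 tested genes for collagen breakdown and uptake, 7 fell and 0 rose (median -0.65). They included the gelatinase MMP2 (-1.44), the membrane-bound MMP15 (-2.39), the uptake receptor MRC2 (-0.77) and the protease FAP (-1.23), the last not called against control hairpin 1. Of 7 tested collagen receptors, 3 fell and 1 rose (median -0.16), a share called near the 48.2% of everything tested. The integrin chain ITGB1 had 333 and 354 CPM with the TARDBP hairpin, 967 and 836 CPM with control hairpin 1 and 902 and 678 CPM with control hairpin 2 (-1.30), and ITGA11 (-1.36) fell too. The fall of ITGA2 (-0.32) and the rise of the receptor kinase DDR1 (0.32) were each called against only 1 control, and DDR1 was not called without knockdown replicate 2 or control hairpin 2 replicate 2, while ITGA2 was called in only 1 of the 6 fits without 1 library.

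Of 10 tested proteins that sit on or beside fibrils, 5 fell and 4 rose (median -1.13). SPARC, a collagen-binding matricellular protein, had 57.9 and 54.8 CPM with the TARDBP hairpin, 273 and 268 CPM with control hairpin 1 and 677 and 608 CPM with control hairpin 2 (-2.89, adjusted p = 1.73e-06). Elastin (ELN, -3.84), fibrillin-1 (FBN1, -1.57), fibronectin (FN1, -1.12) and lumican (LUM, -1.13) fell, FN1 not against control hairpin 1 (-0.04). Decorin (DCN, 2.43) and tenascin-X (TNXB, 2.11) rose against each control, whereas TGFBI (1.18) rose against control hairpin 1 only. THBS1 (0.80), the gene of thrombospondin-1, rose against control hairpin 1 (2.36) and fell against control hairpin 2 (-0.75).

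Among 11 tested basement membrane partners, 5 fell and 0 rose (median -0.52): SPARC, which stands in both lists, the nidogens NID1 (-1.28) and NID2 (-2.01), perlecan (HSPG2, -1.24) and the laminin chain LAMC1 (-0.67), LAMC1 not against control hairpin 1 (-0.09). In the TGF-beta pathway, a known inducer of collagen genes, 5 of 13 tested genes rose and 1 fell (median 0.01). The inhibitors SKIL (1.10) and SMAD7 (0.99) and the receptor TGFBR1 (0.69) rose against each control. TGFB3 (1.29) rose against control hairpin 1 only, TGFB2 (-0.40) fell against control hairpin 2 only and lost its call against the mean without either knockdown library, and SMAD4 (0.20) was called against neither alone and in none of the 6 fits without 1 library.

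Of 14 tested neuroblast markers, 11 fell and 1 rose (median -1.14), with SLC18A1 (-3.31), CHGA (-3.10), CHGB (-2.25) and STMN2 (-1.95) falling and GATA3 (0.35, lost without knockdown replicate 1) rising; the sums stand with the library depths, and TH, the enzyme of catecholamine synthesis, was at or near 0 in all 6 libraries. Of 10 tested fibroblast markers, 3 fell and 2 rose (median -0.10), near the 24.3% and 23.9% of everything tested, and their sum was 386 to 393 CPM with the TARDBP hairpin, 275 to 322 CPM with control hairpin 1 and 416 to 497 CPM with control hairpin 2. PRRX1 and PDPN were at 0 in all 6, PDGFRB (-1.74), FAP and LUM fell, and PDGFRA (1.87) and DCN rose. FAP, DCN and LUM also stand in the collagen pathway lists.

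Schwann cell markers summed to 9.15 to 10.3 CPM with the TARDBP hairpin. With control hairpins 1 and 2 they summed to 23.9 to 26.3 CPM and 10.2 to 10.8 CPM, so only control hairpin 1 stood apart. FOXD3 was at 0 in all 6 libraries. NGFR fell against the mean of both controls (-1.23) but not against control hairpin 2, and the median over the 3 tested markers was 0.06. Endothelial markers summed to 0.675 to 0.775 CPM with the TARDBP hairpin, 1.58 to 1.96 CPM with control hairpin 1 and 1.69 to 2.21 CPM with control hairpin 2, with CDH5 at 0 in all 6 and VWF, the 1 tested, falling (-2.33, lost without knockdown replicate 1). The part of these cell type markers in the collagen differences was not tested.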

How the data were processed

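The deposited values were raw counts per gene symbol and repeat family, 1 file per library. Reads were handled by the authors with bcl2fastq and STAR 2.5.2b on build hg19, per the submitters' processing notes; libraries were ribosome-depleted and strand-specific, per the labels' protocols. For the counting tool, annotation and strand setting, the sources used here give nothing, so reads of overlapping antisense genes may not be separated. Genes and repeat families were fitted together in R 4.3.3 with edgeR 4.0.16: filterByExpr by group (minimum count 10, minimum total 15), TMM scaling and a quasi-likelihood model of 3 group means (3 residual and 5.41 prior degrees of freedom, biological coefficient of variation 10.5%). Adjusted p-values are Benjamini-Hochberg over 17163 genes and families. Standard errors were taken as the size of the log2 fold change divided by the root of its F statistic.

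Collagen members, classes and lists were chosen with earlier results of these data known. Members called against the mean of both controls or against each, where their mean log2 CPM reached 0, are given in every library. From each list, up to 4 called genes with the lowest p are named, and all of a direction with 5 or fewer; a result that this rule would name is not reported here. Lengths are those of the longest basic coding transcript in GENCODE. The fit was checked on simulated counts with 200 changed genes or repeat families and equal control hairpins. That setting holds far fewer differences than these data, so the check does not cover them. Alternatives were median-of-ratios scaling, DESeq2 1.42.0, no count filter, genes alone, a replicate block, pooled controls, a test against 1.5-fold and leaving out each library. Replicates differed beyond sampling noise.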

Additional observations from a re-analysis of the deposited data

Results flagged for a closer look

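COL6A3 was picked out because its change with the TARDBP hairpin was called in opposite directions against the 2 control hairpins. The difference between these changes equals the contrast of control hairpin 2 over control hairpin 1. That contrast was a log2 fold change of 5.00 (SE 0.32, adjusted p = 3.41e-05, edgeR's quasi-likelihood test). Opposite calls already place control hairpin 2 above control hairpin 1, so the contrast is no separate support for the pick. Both libraries of control hairpin 2 were above both knockdown libraries, which were above both libraries of control hairpin 1.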

How the results depend on the processing

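With both controls pooled into 1 group, 0 collagen members were called higher and 8 lower, against 6 and 13 as reported. The test against 1.5-fold called 1 higher and 11 lower. Of all 17163 genes and repeat families tested, 2572 were called with pooled controls and 2462 against 1.5-fold, against 8269 as reported. Leaving out 1 library at a time gave 3 to 6 higher and 11 to 13 lower against the mean of both, 5 to 7 higher and 10 lower against control hairpin 1, 2 higher and 12 to 15 lower against control hairpin 2, and 13 to 16 higher and 2 to 3 lower between the controls. Pooled controls lowered the list counts: folding genes to 6 lower and 1 higher, crosslink genes to 5 lower, collagenases to 3 lower, basement membrane partners to 3 lower, fibril partners to 3 lower and 1 higher, and secretion genes to 0 higher. The test against 1.5-fold left folding genes at 5 lower and 0 higher, secretion genes at 0 higher, collagenases at 4 lower, receptors at 0 higher and TGF-beta genes at 3 higher and 0 lower. With DESeq2 the calls of COL26A1, P4HA1, MIA2, CREB3L2 and SMAD4 against the mean of both were lost.

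No call changed direction under any alternative run. The changes that changed sign had no call. Against the mean of both controls, COL6A3 was -0.011 with median-of-ratios factors, -0.015 with DESeq2, -0.011 with no filter, -0.0021 with the replicate block and -1.54 with pooled controls, where COL15A1 was -0.15 and COL9A3 -0.093, and COL16A1 was 0.0038 with genes alone. Against control hairpin 1, COL4A1 was -0.0041 with median-of-ratios factors, -0.019 with DESeq2 and -0.014 with no filter, and against control hairpin 2, COL5A2 was 0.021 with genes alone. Without 1 library, log2 fold changes against the mean of both ran from -0.24 to 0.27 for COL16A1, -0.24 to 0.42 for COL23A1, -0.091 to 0.28 for COL5A2, -0.31 to 0.36 for COL6A3 and -0.16 to 0.45 for COL9A3. Against control hairpin 1 they ran from -0.74 to 0.050 for COL13A1, -0.17 to 0.21 for COL4A1 and -0.43 to 0.064 for COL6A6. Against control hairpin 2 they ran from -0.35 to 1.00 for COL19A1, -0.52 to 0.13 for COL23A1, -0.22 to 0.15 for COL5A2 and -0.069 to 0.35 for COL7A1, and between the controls from -0.11 to 0.077 for COL6A2 and -0.71 to 0.57 for COL8A2. The cause was not tested.

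Replicate numbers are shared between groups. Deviations of same-numbered libraries correlated at -0.33 and -0.35 between the TARDBP hairpin and control hairpins 1 and 2, and at 0.40 between the controls. Same-numbered libraries thus did not deviate alike in all 3 groups. Exchanging the 2 knockdown libraries would turn both negative correlations positive at the same size, so that all 3 would be positive. A fit with that order was not run, and a block by replicate number cannot take up such a pairing. A fit with the replicate number as a block called 6 higher and 13 lower against the mean of both, 6 and 10 against control hairpin 1, 2 and 14 against control hairpin 2 and 15 and 3 between the controls, the same members in each. With the replicate block the calls of MIA2 and SMAD4 were lost. With lengths taken over all exons, a choice made after seeing the data, the share of COL3A1 was 10.5% with the TARDBP hairpin, 57.0% with control hairpin 1 and 49.0% with control hairpin 2. With the TARDBP hairpin, COL6A2 still led at 30.7%. The share of COL4A2 there went from 8.33% to 4.80%, below COL5A1 (8.48%) and COL4A1 (7.33%). Depth limits the 18 untested members and those with few knockdown counts, such as COL1A2 and COL9A1.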

Other observations

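Antisense and pseudogene rows next to collagen genes were outside the rule and were looked at after their values were seen. COL4A2-AS1 had 6 and 3 counts with the TARDBP hairpin, 9 and 17 counts with control hairpin 1 and 44 and 57 counts with control hairpin 2, the same order of groups as COL4A2. COL1A2-AS1 had 7 and 13 counts with the TARDBP hairpin, 3 and 3 counts with control hairpin 1 and 1 and 4 counts with control hairpin 2, with both knockdown libraries above all 4 controls, the controls overlapping, and no test at these counts. A further antisense row of the same gene, COL4A2-AS2, did not keep the order of COL4A2. Control hairpin 1 was its lowest group, at 0 and 1 counts. The knockdown libraries came next at 8 and 2, and control hairpin 2 was highest at 15 and 13. Only its difference between the control hairpins was called (log2 fold change 4.49, SE 0.96). The sources used here do not give the strand setting of the counting, so reads of these rows and of their collagen genes may not be separated.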
